A study of Homo sapiens with 27 samples.

Results

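The major histone gene cluster of human chromosome 6, at 6p22, was examined for insertions of piggyBac-family transposons. All sites between chr6:25900000 and chr6:28000000 (GRCh38) were taken from the 27 deposited peak lists, in 42 steps of 50 kb, and set against the equally long neighbouring window that ends at chr6:30100000. A site was the start of a plus-strand peak, or the end of a minus-strand peak moved back 3 bases; either way it is the leftmost base of the 4-base target. The histone window held 5054 distinct positions of 2955325 in the whole series, and the neighbouring window held 1055.

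The cells were HCT116, an established human colorectal carcinoma line, and each library read the junctions of self-reporting transposons, which transcribe through their own end into the flanking genome. Cells had spent 2 weeks in puromycin at 3 µg/ml. No expression values were used here, so the line's identity was not checked. The 9 groups had 3 libraries each. In WT_PB and WT_hyPB the wild-type transposon was moved by piggyBac and by its hyperactive form. WT_rePB and WT_rehyPB had the same transposon with the re-engineered forms of these transposases. The short transposon was used with piggyBac (short_PB) or hyperactive piggyBac (short_hyPB), and the symmetric transposon with the re-engineered form (sym_rePB) or its hyperactive version (sym_rehyPB). WT_PBat is labelled as wild-type transposon and piggyBat, a relative of piggyBac from a bat. The labels do not define re-engineered, short or symmetric, nor say whether the wild-type transposon of WT_PBat is that of WT_PB. Nothing in them says that replicates were separate cultures, so p-values measure the spread between these libraries, which may be technical.

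PiggyBac elements insert at the tetranucleotide TTAA and leave it intact when they move. Replication-dependent histone genes are short and intronless, are transcribed in S phase in a dedicated nuclear compartment, the histone locus body, and give mRNAs that end in a stem-loop instead of a poly(A) tail. H2A, H2B, H3 and H4 form the core of the nucleosome, and H1 proteins bind the linker DNA between nucleosomes. The same stretch of 6p22 also carries a large group of tRNA genes, which are transcribed by RNA polymerase III.

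By RefSeq, the window held 53 protein-coding histone genes: 6 of H1, 11 of H2A, 14 of H2B, 10 of H3 and 12 of H4. They fell into 3 blocks. The first spans 268.5 kb from H1-1 to H4C8 and holds 32 genes, the second spans 15.2 kb from H2BC11 to H2AC12 with 5 genes, and the third spans 86.4 kb from H2BC13 to H2BC17 with 16 genes. Bases within 5 kb of any of these genes are called near-histone and made up 303.9 kb, 14.5% of the window; the other 1796.1 kb lay between them. The window also had 100 tRNA genes, 8 histone pseudogenes and 19 other protein-coding genes.

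Promoter sequences are shown first, because there the letters of the insertion targets can be read beside their use. They hold few of the sites: 40 promoter targets were listed by any library, of 1402 positions near histone genes. The 4 lines below give the 250 bases before the start of H4C8, H4C2, H4C4 and H3C2 from RefSeq (GRCh38.p14), 5′ to 3′ in the sense of the gene, with TTAA in capitals. As single windows, those of H4C8, H4C2 and H4C4 had the most library hits on TTAA targets (19, 17 and 17, summed over targets and libraries), and that of H3C2 had 15, of which 4 were from piggyBat. Windows not shown include that of H4C5 with 16 hits and 1 of H3C6 with 15. H3C4 has 2 separate windows, with 13 and 12 hits.
H4C8 (chr6:26285535-26285784, minus strand): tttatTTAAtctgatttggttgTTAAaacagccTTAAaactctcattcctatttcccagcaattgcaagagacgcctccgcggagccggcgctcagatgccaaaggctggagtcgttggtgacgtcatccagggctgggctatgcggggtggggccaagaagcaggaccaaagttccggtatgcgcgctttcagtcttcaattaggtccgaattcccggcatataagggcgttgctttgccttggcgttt
H4C2 (chr6:26027284-26027533, minus strand): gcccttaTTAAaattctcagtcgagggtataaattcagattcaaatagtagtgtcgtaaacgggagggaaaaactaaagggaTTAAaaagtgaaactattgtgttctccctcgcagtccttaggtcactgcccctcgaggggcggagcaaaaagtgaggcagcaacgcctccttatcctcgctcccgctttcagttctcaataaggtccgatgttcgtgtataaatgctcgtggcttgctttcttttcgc
H4C4 (chr6:26189113-26189362, minus strand): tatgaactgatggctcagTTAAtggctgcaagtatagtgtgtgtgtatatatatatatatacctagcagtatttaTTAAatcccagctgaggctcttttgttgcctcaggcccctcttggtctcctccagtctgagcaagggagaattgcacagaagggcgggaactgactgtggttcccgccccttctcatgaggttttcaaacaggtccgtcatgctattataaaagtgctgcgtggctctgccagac
H3C2 (chr6:26032100-26032349, minus strand): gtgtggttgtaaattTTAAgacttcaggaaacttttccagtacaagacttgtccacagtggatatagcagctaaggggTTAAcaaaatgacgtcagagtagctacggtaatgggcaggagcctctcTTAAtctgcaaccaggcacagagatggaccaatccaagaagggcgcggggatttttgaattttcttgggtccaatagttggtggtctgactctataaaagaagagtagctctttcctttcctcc

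In the H4C8 sequence the 3 targets at -245, -228 and -217 bases from the start were listed in 0, 2 and 5 libraries, and another at 7 bases after the start was listed in 12. In H4C2 the targets at -243 and -168 were listed in 10 and 7 libraries. In H4C4 those at -232 and -175 were listed in 1 and 9, and another at 16 bases after the start was listed in 7. In H3C2 the targets at -235, -172 and -124 were listed in 6, 0 and 9 libraries. Targets within the 300 bases around 1 start thus ranged from 0 to 12 of the 27 libraries.

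Single targets are compared next, each with its flanks of at most 13 bases and TTAA in capitals. The first 3 were the promoter targets listed in the most libraries. The next pair comprises the promoter targets that all 3 piggyBat libraries listed. The following pair is identical in all printed letters although it comes from different genes, and the last 2 lines are targets of H3C6 that no library listed.
H3C6 (TTAA at chr6:26224207-26224210): gtaatgtcattctTTAAgaatcttttccag
H2AC4 (TTAA at chr6:26033857-26033860): actcatgcTTAAaaaaggtattttg
H4C8 (TTAA at chr6:26285524-26285527): gcgtttaggtttcTTAAgttggttttagaa
H3C2 (TTAA at chr6:26032220-26032223): gcaggagcctctcTTAAtctgcaaccaggc
H2BC5 (TTAA at chr6:26158159-26158162): agtgttctaactaTTAAcgctacgat
H4C11 (TTAA at chr6:27823879-27823882): caaaagcaattttTTAAagcctcataacgt
H4C12 (TTAA at chr6:27831770-27831773): caaaagcaattttTTAAagcctcataacgt
H3C6 (TTAA at chr6:26224090-26224093): agtagccaatagaTTAAaagtatgtaaatt
H3C6 (TTAA at chr6:26224171-26224174): ggaatccgataggTTAAttcacaatagtgt

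The H3C6 target 29 bases after the start was listed in 15 libraries, 11 of them of the wild-type transposon with a piggyBac transposase, while the targets 88 and 7 bases before the same start were listed in none. The H4C11 and H4C12 targets, with the same 30 printed bases, were listed in 4 and 9 libraries. Histone genes of 1 type are near copies of each other, and how the authors placed reads that match several copies is not given in the sources used here, so assignments between such copies are uncertain.

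Promoters in RefSeq's table run from 250 bases before to 50 after a start, and 48 of the 53 genes had an entry, with 52 windows in all. TTAA was present in 45 of these windows, at 71 distinct targets. At least 1 library listed 40 of the 71, the deep libraries 39, the shallow ones 11 and piggyBat 7. Both strands of each window were searched for the target TTAA, for the letters CCAAT of the CCAAT box, for TATAAA as the TATA box and for the octamer ATTTGCAT. Windows of the same position were counted once. TTAA occurred in 86.3% of 51 histone windows against 40.2% of 21961 windows of other protein-coding genes, the CCAAT box in 86.3% against 34.6%, the TATA box in 66.7% against 9.36% and the octamer in 39.2% against 1.56%. None of these motifs contains another of them. The share of promoter sites that fell exactly on TTAA, which checks the site definition and the build, was 97.8% (2093 of 2141), 98.01% (1867 of 1905) and 97.95% (2059 of 2102) in the 3 WT_PB libraries. A share per target takes out the number of TTAA targets: in WT_PB, 22.5% ± 4.23 (SD, n = 3) of histone promoter targets were listed against 12.8% ± 0.811 of the 14689 other promoter targets. Over the 12 deep libraries a histone promoter target was 1.91 times as likely to be listed (range 1.34 to 2.61, higher in 12 of 12, two-sided exact sign-flip permutation p = 0.000488, the smallest this test can give). Outside promoters no sequence was used here, so target density was not computed there.

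The 12 libraries of WT_PB, WT_hyPB, WT_rePB and WT_rehyPB had 336333 to 570362 distinct sites each and are called deep. The other 15 libraries had 2814 to 9212 and are called shallow. A constant in each file, taken as its read total although no header says so, was 8118085 to 12051190 in deep and 142666 to 256608 in shallow libraries. In every comparison of the short or symmetric transposon or piggyBat with WT groups of piggyBac, depth and group cannot be told apart. Some libraries of 1 group were linked: WT_hyPB replicates 1 and 2 shared 998 sites of the window (78.7% and 80.6% of their lists), against 44.0% to 46.9% for each with replicate 3, and WT_PBat replicates 1 and 3 shared 59 (67.8% and 55.7%), against 20.7% to 44.3% for the other pairs. Where averaging each linked pair changed a call or a count of calls in the window, that value is given beside the result. Of the piggyBat positions near histone genes, 111 of 129 (86.0%) were also listed in a deep library, as were 40 of 44 (90.9%) of those between them. For the short and symmetric groups together the shares were 91.8% and 91.4%. Whether reads passed between libraries was not tested.

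Sites in the histone window were several times as dense as the library average in every group, and denser still beside the histone genes. In the window WT_PB listed 1187, 968 and 1114 sites, WT_hyPB 1268, 1238 and 1319, WT_rePB 1186, 1272 and 1208, and WT_rehyPB 824, 974 and 1063. Divided by each library's own average over 2988.3 Mb of tiled chromosomes, these densities came to 3.90-fold ± 0.102 for WT_PB and 4.31 ± 0.12 for WT_hyPB (SD, n = 3). The re-engineered groups were at 3.16 ± 0.059 (WT_rePB) and 3.63 ± 0.162 (WT_rehyPB). Among 1423 windows of 2.1 Mb, the histone window ranked between 6 and 8 in these 4 groups.

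Near histone genes the density in WT_PB was 10.01, 10.7 and 10.1-fold over the library average, and between them it was 2.86, 2.87 and 2.73-fold. The values did not overlap. WT_hyPB had 11.1 ± 0.691 near and 3.16 ± 0.064 between, WT_rePB 6.81 ± 0.082 and 2.55 ± 0.081, and WT_rehyPB 8.91 ± 0.508 and 2.74 ± 0.114 (SD, n = 3 each). In all 12 deep libraries the near density exceeded the between density, by a mean of 1.70 ± 0.19 on the log2 scale or 3.24-fold (two-sided exact sign-flip permutation p = 0.000488). Against bases within 5 kb of the window's other protein-coding genes the excess was 1.82 ± 0.24 on the log2 scale or 3.53-fold, again in 12 of 12 libraries and with the same p.

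The other genes of the window ranged widely. In WT_PB the density near the 19 other coding genes was 2.63-fold ± 0.173. It was 3.09 ± 0.234 near the 6 butyrophilin genes, which encode immunoglobulin-like membrane proteins, and 1.48 ± 0.075 near the 3 zinc finger genes. It was 1.71 ± 0.218 near the 2 olfactory receptor genes and 1.04 ± 0.367 near SLC17A2, a transporter gene. Within 5 kb of a tRNA gene but over 5 kb from a histone gene it was 4.46 ± 0.228, and in the 1181.6 kb near neither it was 1.97 ± 0.131. Histone genes thus had the highest density of these lists in WT_PB, with tRNA genes next. Near the 13 histone genes of chromosome 1 the density was 4.26 ± 0.43, and near coding genes genome-wide outside the window it was 1.27 ± 0.006.

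**Figure D1:**
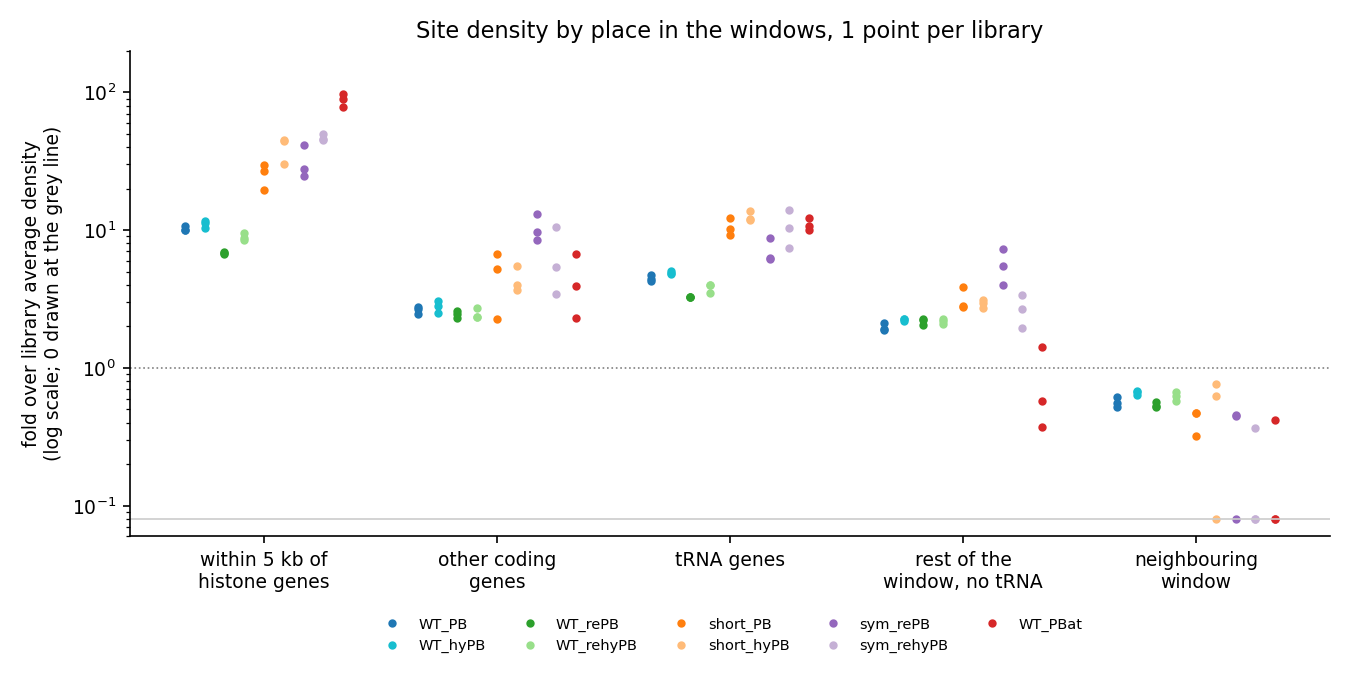
Site density of each of the 27 libraries (1 point each, coloured by group) as fold over the library average, on a log axis, in 5 places: within 5 kb of histone genes, near other coding genes, near tRNA genes, the rest of the histone window and the neighbouring window. WT_PB points sit between 10.01 and 10.7 beside histone genes and between 0.525 and 0.617 in the neighbouring window, and the piggyBat points reach 96.3 beside histone genes.

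The window held 6.26 times as many sites as the neighbouring one over the 12 deep libraries (range 5.64 to 7.62, log2 2.65 ± 0.13, higher in 12 of 12, two-sided exact sign-flip permutation p = 0.000488). That factor rests on where the neighbouring window ends. Of its deep sites 91.3% to 93.3% lay in its first 10 steps (0.5 Mb, 12 coding genes), where the density was 2.33-fold over the library average. In the remaining 1.6 Mb, with 30 coding genes, it was 0.0576-fold. This low stretch ran on for 4.9 Mb to chr6:33400000 with 317 deep sites beside 168 coding genes, and in the 0.5 Mb after it the density was 1.39-fold. Against the first 10 steps alone, the histone window was 1.61-fold as dense (range 1.41 to 1.95, exact permutation p = 0.000488). The stretch contains the major histocompatibility complex, for which GRCh38 carries alternate sequences. The files list none of these, and whether reads were lost to them was not tested.

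Step by step, the profile followed the blocks. The 8 steps with the most deep sites start at chr6:27800000 (954 sites, with 9 histone genes from H2BC13 to H2BC15), 26150000 (846, 7 genes from H1-4 to H2BC7), 26100000 (765), 26000000 (743, 8 genes from H1-1 to H3C3), 26050000 (730), 26300000 (647), 26550000 (539) and 26200000 (528). In WT_PB the first of them was 12.5-fold ± 1.23 over the library average and the second 11.5 ± 0.62. Of the 8, 6 held histone genes. The other two had 11 tRNA genes (26300000, 8.89-fold ± 0.362 in WT_PB) and 9 tRNA genes with ABT1, a nuclear activator of basal transcription (26550000, 6.46 ± 0.494). Across the window the median over steps in WT_PB was 8.74-fold for the 9 steps with histone genes and 2.35-fold for the 33 without. No step of the histone window lacked a deep site, and 13 of the 42 neighbouring steps did.

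**Figure D2:**
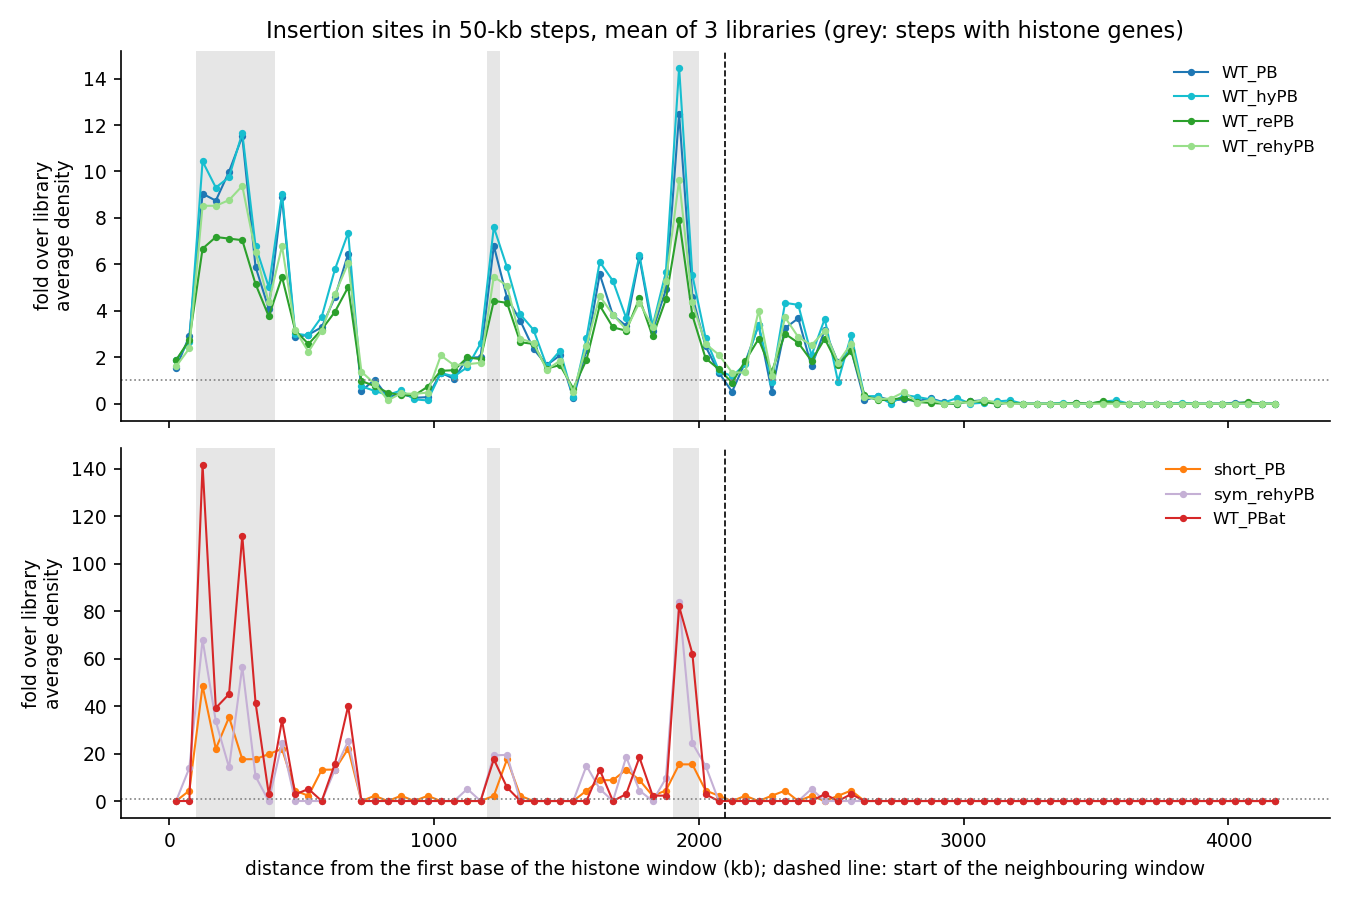
Fold over the library average in 50-kb steps (mean of 3 libraries) against distance from the first base of the histone window in kb, for the 4 deep groups above and for short_PB, sym_rehyPB and WT_PBat below; grey marks the 9 steps with histone genes and the dashed line the start of the neighbouring window. WT_PB peaks at 12.5 in the third block, WT_PBat at 142 in the first block, and all lines fall close to 0 after the first 10 steps of the neighbouring window.

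Density was highest within 2 kb of a gene and lower farther out. In WT_PB it was 10.1-fold ± 0.757 inside histone genes, 13.1 ± 0.877 in the 1 kb outside them, 11.9 ± 0.695 from 1 to 2 kb, 7.23 ± 0.608 from 2 to 5 kb and 4.44 ± 0.22 from 5 to 10 kb. Beyond 50 kb it was 2.41 ± 0.065. Between the blocks' genes the density was also above that of the rest: 4.33 ± 0.548 in the first block and 3.45 ± 0.437 in the third.

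Seen from the start sites of the 48 genes with a promoter entry, deep groups had lower densities in the 0.5 kb after it than in the bins farther out on both sides. In WT_PB the density was 13.6-fold ± 2.80 from 1.5 to 1 kb before the start, 6.94 ± 0.386 in the 0.5 kb after it and 15.7 ± 1.83 in the following 0.5 kb. As most histone genes are shorter than 0.8 kb (48 genes of 386 to 797 bases), that last bin lies mostly past their 3′ ends. PiggyBat differed in shape from the deep groups: from 0.5 to 1 kb after the start it reached 301 ± 78.3, and from 1 to 0.5 kb before the start it was 19.1 ± 16.8. Summed from 0.5 to 2.5 kb, the 3 piggyBat libraries had 36, 35 and 57 sites after the start and 5, 1 and 3 before it, at 195-fold ± 28.3 and 27.5 ± 19.6. WT_PB had 180, 151 and 164 after and 72, 49 and 65 before, at 14.5 ± 0.802 and 10.7 ± 0.817, where the lengths compared are 85.3 kb after and 43.2 kb before. The after side was denser in all 3 libraries of WT_PB, WT_hyPB, WT_rePB, WT_rehyPB, short_PB, sym_rehyPB and WT_PBat and in 2 of 3 of short_hyPB and sym_rePB. After and before, short_PB was at 41.3 ± 2.45 and 20.5 ± 17.7, and short_hyPB at 75.9 ± 20.3 and 40.9 ± 28.3. In the same order sym_rePB was at 72.6 ± 20.3 and 54.6 ± 47.9, and sym_rehyPB at 116 ± 28.4 and 57.4 ± 12.6. These sides were chosen after the profile was seen, and no test was made.

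**Figure D3:**
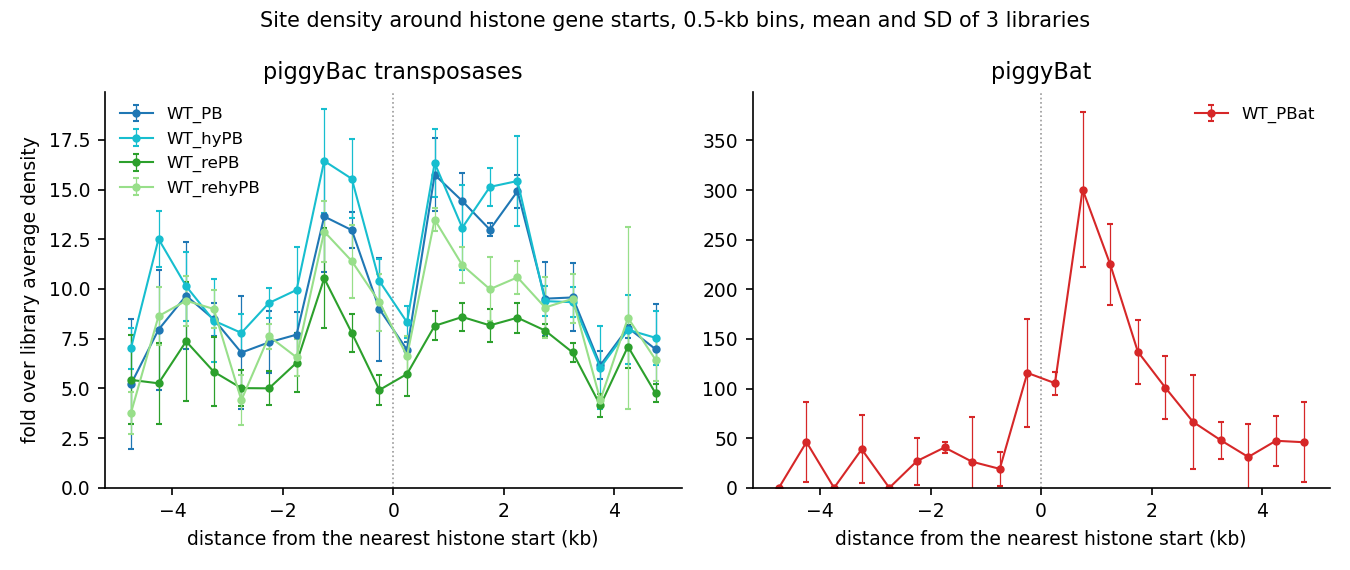
Density in 0.5-kb bins against the distance in kb from the nearest of the starts of 48 histone genes, in the sense of that gene (positive is downstream), as fold over the library average, mean and SD of 3 libraries; the left panel shows the 4 deep piggyBac groups and the right panel piggyBat on its own axis. The piggyBac lines lie between 3.76 and 16.4 on both sides, and the piggyBat line has its maximum of 301 from 0.5 to 1 kb after the start.

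All 53 genes had deep sites within 5 kb, and in each of the 4 deep groups all 53 were above the library average. Sites between close neighbours are counted for each of them, so genes are not independent of each other. The 12 genes with the most deep sites were H2BC4 (401), H2BC5 (337), H2BC12 (320), H3C2 (314), H1-2 (313), H4C2 (311), H2BC7 (294), H1-4 (286), H3C4 (284), H4C12 (276), H2AC7 (274) and H2AC4 (273), against a median of 204. H2BC4, H2BC5, H2BC12 and H3C4 are annotated with transcripts longer than 1 kb and so cover more bases. Per base, H4C2 led in WT_PB at 20.3-fold ± 2.02, with H3C2 at 20.1 ± 3.46, a difference smaller than either SD. H2BC4 was at 13.2 ± 1.84.

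The 5 genes with the fewest deep sites were H3C11 (33), H4C13 (37), H2AC16 (44), H1-3 (45) and H1-5 (46). H1-3 encodes a linker histone and lies in the first block, and its WT_PB density was 1.63-fold ± 0.358. The other 4 are neighbours in the third block. H3C11 had 1, 1 and 3 sites in WT_PB, 1.18-fold ± 0.757, which overlaps the library average. In the same block H4C12 was at 17.4 ± 1.67, so members of 1 block differed by far more than their SD. By type, density in WT_PB was 9.98 ± 1.04 near H1 genes, 12.1 ± 0.245 near H2A, 10.2 ± 0.312 near H2B, 9.15 ± 0.193 near H3 and 11.5 ± 0.661 near H4 genes.

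**Figure D4:**
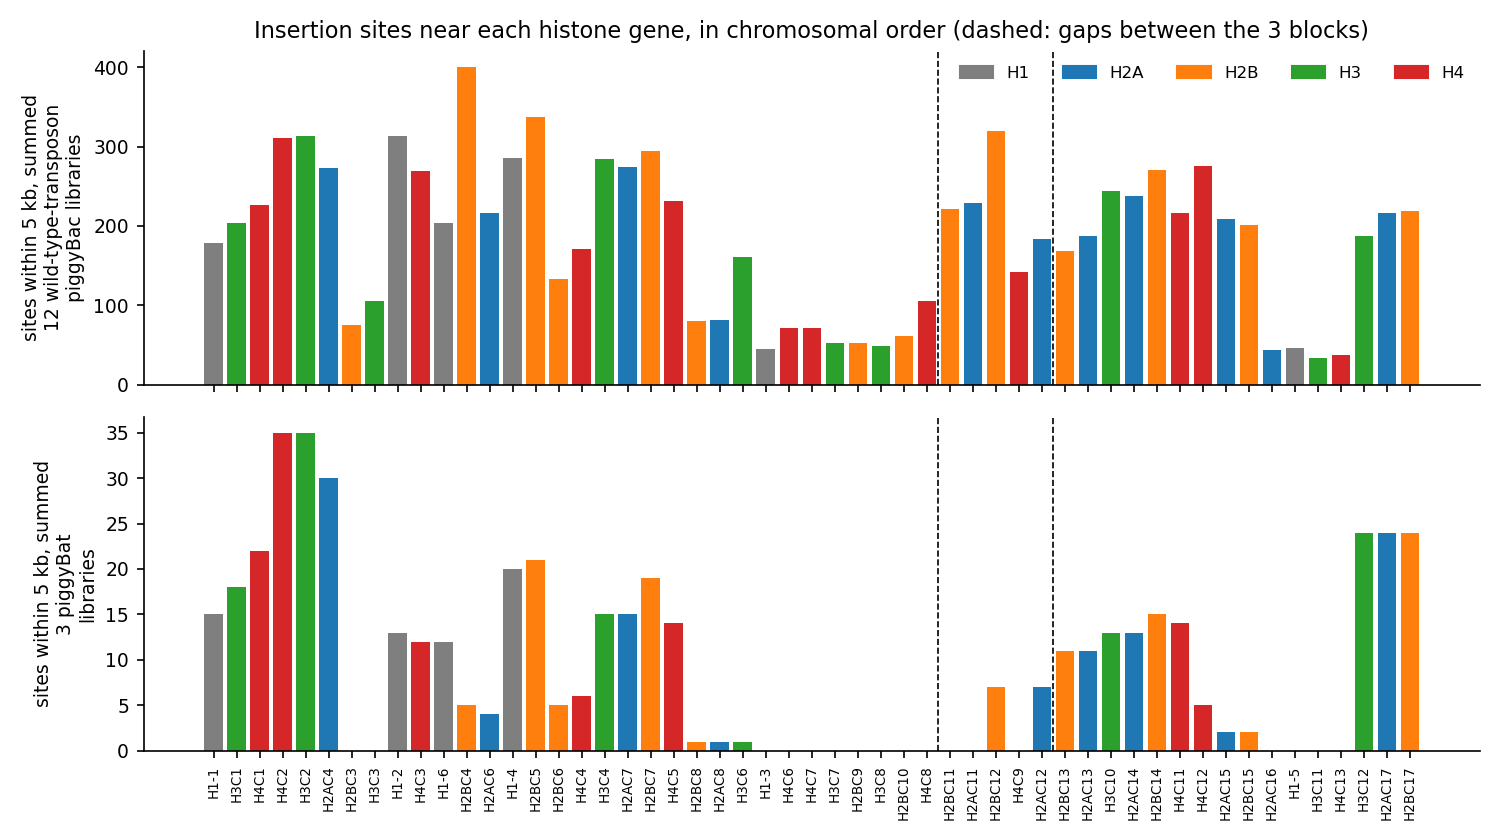
Distinct sites within 5 kb of each of the 53 histone genes in chromosomal order, summed over the 12 deep libraries above and over the 3 piggyBat libraries below, coloured by histone type; dashed lines separate the 3 blocks. H2BC4 has the highest deep bar (401), H3C2 and H4C2 the highest piggyBat bars (35 each), and 17 genes have no piggyBat bar.

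In each piggyBat library a larger share of the window's sites lay near histone genes than in any piggyBac library. The 3 libraries listed 87, 70 and 106 sites in the window, of which 65, 54 and 86 lay within 5 kb of a histone gene, a share of 77.7% ± 3.24 (lowest 74.7%). The highest piggyBac library, of sym_rehyPB, had 66.7%. WT_PB had 37.2%, 38.6% and 38.4%, so the groups did not overlap. The difference of 39.6 percentage points is at the limit of an exact permutation test of 3 against 3 libraries (two-sided p = 0.1, the smallest possible; adjusted p = 0.115 over 15 tests). Near histone genes the shallow piggyBac groups, closer to piggyBat in depth, were well above the deep ones. Their densities were 25.4-fold ± 5.31 (short_PB), 39.8 ± 8.27 (short_hyPB), 31.3 ± 8.73 (sym_rePB) and 46.9 ± 2.37 (sym_rehyPB). PiggyBat density was 88.0-fold ± 9.44 near histone genes, 181 ± 32.3 in the 1 kb outside them and 121 ± 19.3 inside them. Near tRNA genes it was 11.0 ± 1.20, and in the rest of the window 0.79 ± 0.558 (7 sites). It was 22.6 ± 5.73 near the 13 histone genes of chromosome 1 and 1.69 ± 0.017 near coding genes genome-wide. Of the 1423 windows of 2.1 Mb, the histone window ranked 1 in piggyBat, with 114 ± 10.9 of every 10000 sites.

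Over single genes, piggyBat listed 11, 11 and 13 sites within 5 kb of H3C2, 11, 9 and 15 near H4C2 and 10, 9 and 11 near H2AC4, at 440-fold ± 18.4, 439 ± 56.5 and 376 ± 21.99. These 3 genes are close neighbours and share sites. Near the other end of the window, H2AC17 had 7, 6 and 11 sites (296-fold ± 55.0). Of the 53 genes, 36 had a piggyBat site. The 17 without one include all 5 genes with the fewest deep sites and H4C8, which had 106 deep sites and the promoter window with the most hits. H2AC11 and H2BC11 of the second block also had none, although they had 229 and 222 deep sites. Among these 17 genes, 14 (82.4%) were also among the 17 of all 53 genes with the fewest deep sites. Several of them are neighbours that share sites, so they are not separate cases, and the overlap was not tested. Of the 12 genes with the most deep sites, all 12 had piggyBat sites.

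Single positions recurred across groups. Of 1402 near positions 33.0% were listed in 1 library and 22.97% in at least 6; of 3652 positions between genes the shares were 48.7% and 9.39%. The position in the most libraries near a histone gene was chr6:26206122, which lies 1512 bases after the start of H4C5 and was listed in 21 libraries of all 9 groups, with peak heights of 118 to 170 in the 12 deep ones. Positions 27825260 (1168 bases after the H4C11 start), 26187983 (1129 after that of H4C4), 26027623 (340 before that of H4C2) and 26033285 (inside H2AC4) were listed in 20 libraries each. The last was in all 3 piggyBat libraries, at heights of 11, 11 and 24. Of the 12 top positions, those at 26057191 and 26119131 were the ones that no piggyBat library listed.

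Peaks near histone genes were also taller and more often repeated. Over the 12 deep libraries the median height was 3.0 ± 1.28 higher near than between (12 of 12), and the share with a height of at least 20 was 8.22 ± 2.49 percentage points higher (12 of 12). The share listed in another replicate of the group was 14.9 ± 7.81 points higher (11 of 12, range -2.38 to 24.6), and the share with peaks on both strands 5.07 ± 1.10 points higher (12 of 12). Sign-flip permutation tests gave p = 0.000488, 0.000488, 0.00146 and 0.000488, and adjusted p of 0.000651, 0.000651, 0.00146 and 0.000651 over the 4 tests. In WT_PB, 47.2% ± 2.98 of near peaks had a height of at least 20 against 37.9% ± 2.196 of those between and 29.6% ± 2.55 of all peaks. Among tall peaks alone the near-histone share is therefore higher.

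Re-engineered transposases had a smaller share of the window's sites near histone genes. The near-histone share was 32.2%, 30.4% and 30.9% in WT_rePB, below all 3 WT_PB libraries, and 35.9%, 35.9% and 34.5% in WT_rehyPB against 37.1%, 38.7% and 35.7% in WT_hyPB, where the groups overlapped. The mean difference was -4.32 percentage points (-6.93 and -1.72 in the 2 pairs; two-sided exact permutation p = 0.015, adjusted p = 0.025 over 15 tests). Without WT_hyPB replicate 2 it was -3.95 points, with an exact permutation adjusted p of 0.05, no longer past the threshold. The groups also differed in the number of sites listed per library. WT_rePB had 542490 to 570362 and WT_PB 346919 to 437447, without overlap. WT_rehyPB had 336333 to 427346 and WT_hyPB 408335 to 453202, with overlap. Whether the number of listed sites bears on the re-engineering values was not tested. The window's part in all sites also fell, by 4.92 per 10000 (22.05 ± 0.411 in WT_rePB and 27.2 ± 0.717 in WT_PB, 25.3 ± 1.12 in WT_rehyPB and 30.0 ± 0.835 in WT_hyPB; exact permutation p = 0.005, adjusted 0.00938). Its log2 ratio to the neighbouring window fell by 0.19, with the same p-values.

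Values for the rest of the window stand beside these. Near tRNA genes the density was 4.28 to 4.72-fold in WT_PB and 3.26 to 3.27 in WT_rePB, with no overlap, and 4.81 to 5.09 in WT_hyPB and 3.52 to 4.01 in WT_rehyPB. In the bases near neither it was 1.97 ± 0.131 in WT_PB and 2.17 ± 0.119 in WT_rePB, 2.24 ± 0.045 in WT_hyPB and 2.18 ± 0.088 in WT_rehyPB. The groups overlapped there. Promoter targets of other protein-coding genes were also listed less often with re-engineered transposases. The share was 12.8% ± 0.811 in WT_PB and 9.37% ± 0.185 in WT_rePB, and 12.9% ± 0.572 in WT_hyPB and 7.77% ± 0.91 in WT_rehyPB. Histone promoter targets were listed 1.77 ± 0.357 times as often as these in WT_PB and 1.96 ± 0.637 in WT_rePB. The ratio was 1.89 ± 0.286 in WT_hyPB and 2.18 ± 0.241 in WT_rehyPB. Whether the change differs between these places was not tested. Per gene, 41 of the 53 histone genes had a lower density in WT_rePB than in WT_PB, with a median ratio of 0.633. The 12 that were higher include the 5 genes with the fewest deep sites. In WT_rehyPB 45 of the 53 were lower than in WT_hyPB, with a median ratio of 0.793, and of those 5 genes H4C13 was among the 8 that were higher. Close neighbours share sites, and the same count over all coding genes is not given here. These counts therefore do not set histone genes apart from other genes.

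In limma's fit over 50-kb steps of the genome, 9 of the 37 histone-window steps that passed the filter of a mean of 5 sites were lower with re-engineered transposases and 0 were higher (adjusted p under 0.05), against a background of 1.82% of 32165 steps called lower. With linked libraries averaged, 7 steps were lower, and leaving out each library in turn gave 7 to 10. Of the 9 steps with histone genes 5 were lower, and of the 28 others 4 were. The 4 start at 26300000, 26550000, 27500000 and 27650000 and hold 11, 9, 8 and 7 tRNA genes. Fuller steps are easier to call: the SE was 0.0645 at 27800000 (954 deep sites) and 0.3424 at 26650000 (69 deep sites). All called steps of the window were among its fuller ones. The background covers every step past the filter, and equally full steps elsewhere were not compared. These counts therefore do not separate histone or tRNA genes from site number. The step at 27800000 changed by -0.62 ± 0.06 on the log2 scale (SE; WT_PB 12.5-fold, WT_rePB 7.92-fold; limma adjusted p = 5.33e-08). The step at 26300000 changed by -0.56 ± 0.08 (adjusted p = 1.3e-05), and the one at 26150000 by -0.51 ± 0.07 (adjusted p = 3.8e-06). For the 2.1-Mb window as a whole the change was -0.27 ± 0.07 with limma's adjusted p of 0.144, where 0.224% of 1339 windows were called; with precision weights (voom) it was -0.27 with an adjusted p of 7.09e-08. The fit over all groups takes 1 spread for deep and shallow libraries alike.

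Hyperactive transposases placed a somewhat larger part of all sites in the window, by 3.08 per 10000 (2.87 and 3.28 in the 2 pairs; exact permutation p = 0.005, adjusted 0.00938). WT_hyPB libraries, at 29.1 to 30.7 per 10000, did not overlap those of WT_PB at 26.5 to 27.9. Their near-histone share differed by 1.69 percentage points (exact permutation p = 0.135, adjusted 0.145), and the log2 ratio to the neighbouring window by -0.05 (exact permutation p = 0.38). In the 50-kb steps limma called 0 of 37 steps of the window, against 0.249% of 32165 steps; 14 of the 37 had an unadjusted p under 0.05, and with voom weights 1 step was called. The median log2 change over the 37 was 0.22. In the 2.1-Mb windows limma gave 0.17 ± 0.07 (adjusted p = 1.00, with 0% of 1339 windows called and 21 at an unadjusted p under 0.05), and voom weights gave an adjusted p of 0.000106 with 228 windows called.

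For the short and symmetric transposons the direction depended on how depth was handled. In the lists as deposited, short_PB had 55, 54 and 54 sites in the window and short_hyPB 63, 46 and 60, of which 18, 27 and 25, and 33, 21 and 34, were near histone genes. The near-histone share was 43.0% ± 9.09 and 51.6% ± 5.55, and relative to the wild-type transposon with the same transposase it was 9.65 points higher (exact permutation p = 0.02, adjusted 0.03; adjusted p = 0.06 with the linked WT_hyPB libraries averaged). The call rested on the full set of libraries: leaving out 1 library lost it in 9 of 12 cases (exact permutation adjusted p of 0.0525 to 0.0825), and it was kept without short_PB replicate 1, short_hyPB replicate 1 or short_hyPB replicate 2. The short_PB libraries, at 18 of 55, 27 of 54 and 25 of 54 sites, overlapped those of WT_PB. The window's part in all sites was higher by 39.7 per 10000 (exact permutation adjusted p = 0.00938), and the log2 ratio to the neighbouring window by 1.74 (exact permutation adjusted p = 0.00938).

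The symmetric transposon gave 18, 18 and 26 sites in the window in sym_rePB and 27, 31 and 40 in sym_rehyPB, with near-histone shares of 46.3% ± 6.42 and 60.2% ± 7.15. Against the wild-type transposon the share was 19.9 points higher, the window's part 49.7 per 10000 higher and the log2 ratio 2.37 higher (exact permutation adjusted p = 0.00938 each). In limma's fit of 2.1-Mb windows the histone window was higher by 1.25 ± 0.07 with the short transposon (adjusted p = 1.32e-13), by 1.64 ± 0.07 with the symmetric one (1.46e-16) and by 2.07 ± 0.10 in piggyBat (1.03e-14). The background was high: 20.5% of 1304, 22.8% of 1302 and 18.2% of 1307 windows were called higher in these 3 comparisons. On simulated counts a large part of the windows this fit called in these 3 comparisons were unchanged ones, mostly called higher. The background counts are therefore not reliable. In the libraries themselves more windows were called lower (429, 522 and 475) than higher (267, 297 and 238). Whether the calls of the histone window are reliable was not tested. All 3 comparisons set shallow against deep libraries.

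To compare at equal numbers, the wild-type-transposon libraries were cut to their tallest peaks, at the height that left about the mean number of sites of the group compared (73 to 82 for the short, at least 94 for the symmetric and 77 to 79 for the piggyBat comparison). The tallest WT_PB sites were 58.2% ± 0.992 near histone genes against 43.0% ± 9.09 in short_PB, and those of WT_hyPB 61.4% ± 3.12 against 51.6% ± 5.55 in short_hyPB. The short share was then lower by a mean of -12.5 points (exact permutation p = 0.005, adjusted 0.0187), and the window's part lower, at -13.5 per 10000 (p = 0.01, adjusted 0.03 by the same permutation test), both the reverse of the uncut comparison. Only the wild-type-transposon lists were cut by height, and peaks near histone genes were taller. The cut thus raised their near share, from 38.1% to 58.2% in WT_PB and from 37.2% to 61.4% in WT_hyPB. The reversal cannot be told apart from this selection, and its p-values do not measure a difference between transposons. For the symmetric transposon the share difference became -6.45 points and the part 11.5 per 10000, neither past the threshold (exact permutation adjusted p = 0.156 each). The log2 ratio stayed higher, by 1.61 (exact permutation adjusted p = 0.0429), on 2 neighbouring-window sites in sym_rePB and 1 in sym_rehyPB. PiggyBat kept its direction: 77.7% ± 3.24 against 58.1% ± 2.00 for the tallest WT_PB sites, and 114 ± 10.9 against 78.1 ± 2.70 per 10000 sites, with no overlap and the limiting exact permutation p of 0.1.

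**Figure D5:**
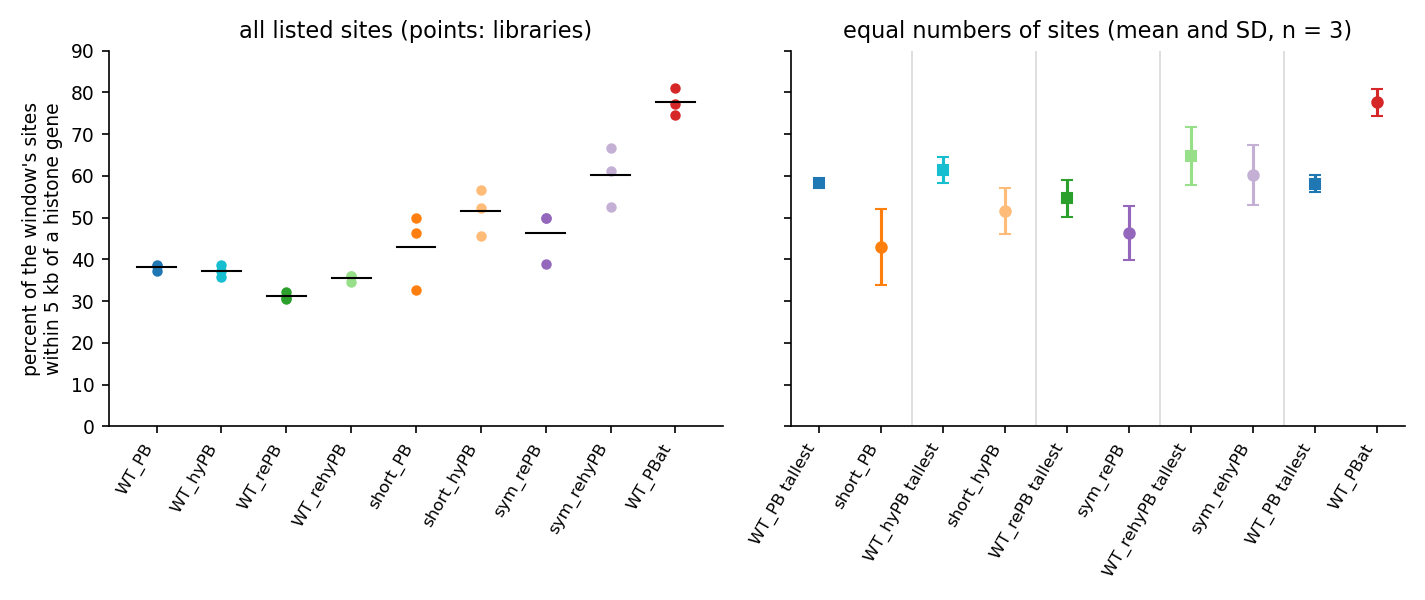
Percent of the window's sites within 5 kb of a histone gene: the left panel has 1 point per library and a line at the mean for all listed sites in the 9 groups; the right panel gives mean and SD of 3 libraries with the wild-type-transposon piggyBac libraries cut to their tallest sites (squares) beside the group compared (circles). In the left panel WT_PB is at 38.1% and short_PB at 43.0%, in the right panel tallest WT_PB is at 58.2%, above short_PB, while WT_PBat stays highest at 77.7%.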

How the data were processed

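The 27 deposited peak lists were made by the authors, 1 per library and without a header; their coverage columns (summed signal and peak height, at least 5 in every file) are the authors' and were not rescaled. The submitters' processing notes name cutadapt 3.4, HISAT2 2.2.1.0, hg38 and GRCh38.p5; the peak caller and the handling of duplicate or multiply placed reads are not given in the sources used here. Distinct positions were counted once per library. Genes (59792 with a position) and promoter sequences came from RefSeq, GRCh38.p14. A fold is sites per base over the library's sites per base of tiled chromosomes. Effects average the pairs of groups that differ in 1 component and were tested by two-sided exact permutation within pairs (smallest p 0.005 with 2 pairs), adjusted by Benjamini-Hochberg over 15 tests, with 0.5 added to counts in log2 ratios to the neighbouring window. Windows of 2.1 Mb (mean of at least 2 sites) and 50-kb steps (at least 5) were fitted with limma 3.58.1 in R 4.3.3 on log2 site counts scaled to each library's total, with 0.5 added, after a test on simulated data. Named were the 12 genes with the most and 5 with the fewest deep sites, the 8 fullest steps and 12 positions in the most libraries, and genes tied to a printed sequence or to piggyBat sites, which were picked after their values were seen. Members and lists were chosen with earlier results of these data known. Peaks come from PCR reads without molecular identifiers. Alternatives were other distances, heights, scales, filters, weights and left-out libraries, cuts to equal numbers and a shorter neighbouring window; the last 2, the voom weights and a fit of deep groups alone were added after seeing the data.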

Additional observations from a re-analysis of the deposited data

Results flagged for a closer look

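The hyperactive effect on the near-histone share differed between its 2 pairs of groups. WT_hyPB was 0.916 percentage points below WT_PB, and WT_rehyPB was 4.29 points above WT_rePB. The difference between the pairs was -5.21 points (two-sided permutation within pairs, p = 0.005, the smallest possible, adjusted p = 0.045 over 9 such tests). Labels were exchanged after the estimated mean effect was taken out, so this permutation test is approximate. The near-histone shares were 37.2 to 38.6% in WT_PB, 35.7 to 38.7% in WT_hyPB, 30.4 to 32.2% in WT_rePB and 34.5 to 35.9% in WT_rehyPB, so that the first pair overlapped and the second did not. Near genes the density was 6.81-fold in WT_rePB, the lowest of the 4, and 8.91-fold in WT_rehyPB. WT_rePB libraries also listed the most sites in all, 542490 to 570362 each, against at most 453202 in the other deep groups. Whether this bears on the difference was not tested.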

How the results depend on the processing

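Of the alternatives, 490 values kept direction and call, 20 lost the threshold, 5 gained it, 8 turned direction and 40 counts moved by over 1.5 times. With sites pooled over replicates, near against between densities gave 1.49 (log2, n = 4 groups; exact permutation p = 0.125, the smallest possible). Over 4 pairs, the short and symmetric ones added, the hyperactive near-histone share rose to 6.45 points and its log2 ratio turned to 0.44; at heights of at least 10 that ratio was 0.0103. At heights of at least 10, 20 and with tallest sites at equal numbers, the short near-histone share was 7.84, -14.6 and -12.5 points, and it was 9.83 with linked libraries averaged; the short log2 ratio was 1.06, -0.57 and 0.37 and, at equal numbers, the window part -13.5 per 10000. In the same order the symmetric share was 5.51, 62.7 and -6.45 points; its log2 ratio was 0.31 and -2.21 at heights of at least 10 and 20, and its window part 86.1 at 20 and 11.5 at equal numbers. The causes were not tested. In 2.1-Mb windows, hyperactive (0.17) and re-engineering (-0.27) changes passed the threshold with voom weights or deep groups alone. Hyperactive calls there, 0 in the main fit, were 1 without a filter, 9 at heights of at least 10, 228 with voom and 416 in deep groups; re-engineering calls, 3, were 5 with a prior count of 2, 6 without a filter, 1 at heights of at least 10 or with linked libraries averaged, 141 with voom and 349 in deep groups. In 50-kb steps the 80 hyperactive calls became 135 (prior count 2), 10 (no filter), 16 (median scale), 28 (linked averaged) and 177 (voom), the re-engineering total of 802 became 481 (linked averaged), and hyperactive calls in the window were 1 at heights of at least 10 or with voom. Leaving out each replicate gave -4.69 to -3.95 points for the re-engineering share (call lost in 1 of 12), 7.90 to 12.2 for the short share (lost in 9 of 12), 0 to 10 re-engineering calls in 2.1-Mb windows, 23 to 144 hyperactive and 479 to 950 re-engineering calls in 50-kb steps, and 0 to 1 hyperactive calls in the window (1 without WT_PB replicate 2). A median scale moved the median change of all 2.1-Mb windows (-0.36, -0.455 and -0.541 in the short, symmetric and piggyBat comparisons) to 0.0811, 0.207 and 0.144, and the higher and lower calls from 267 and 429 to 372 and 213, from 297 and 522 to 468 and 190, and from 238 and 475 to 396 and 278; a prior count of 2 gave 496 and 230, 767 and 53, and 450 and 328. The replicate block gave 89 and 838 calls in 50-kb steps and the same 0 and 9 in the window. For re-engineering in the 2.1-Mb window it gave -0.27 with limma's adjusted p = 0.184. Same-numbered libraries correlated at -0.145 to 0.238 in 2.1-Mb windows. Libraries with different numbers were not compared, so whether the numbers pair the samples is not known. The shallow libraries' 18 to 106 window sites limit every shallow comparison.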
